A study of Homo sapiens with 4 samples.

Results

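The genes described here are 10 of the cytosolic aminoacyl-tRNA synthetases, namely AARS, SARS, GARS, WARS, MARS, NARS, TARS, IARS, EPRS and CARS. They were taken by gene symbol from a table of 40205 genes, and all 10 were found. Each passed the filter on low values (1 RPKM or more in any library), as did 16098 genes in all. RPKM is a gene's read number divided by the length of its model and the depth of the library. The 10 were chosen by their RPKM in knockdown against control, as genes proposed with that comparison in view. It is therefore given for them as a description, without a test.

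The libraries came from U87MG and U251, established human glioblastoma cell lines. Each line was infected with lentivirus at a multiplicity of infection of 20, carrying either a control short hairpin (sh-NC, labelled WT) or a hairpin against SRSF1 (sh-SRSF1, labelled KD), and was selected with puromycin for 1 week. The control cells are thus infected and selected cells, not untouched ones. SRSF1 is a serine/arginine-rich splicing factor. There was 1 poly(A) library per line and arm, so 4 in all. Their depths, inferred from the steps of the RPKM values and not given by the labels, were 25099799 to 27953878 reads. The arms are replicated only across the 2 lines, and the labels name no separate cultures. P-values therefore rest on the spread between these libraries only. The limma fit moderates that spread across genes of similar level, so an SE given here is not the gene's own spread.

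SRSF1 was low in both libraries labelled as knockdown, at 14.6 and 15.8 RPKM against 88.3 and 109 RPKM with the control hairpin. Of 8 astrocyte and glioma markers, VIM (1065 to 1675 RPKM) and CD44 (124 to 184 RPKM) were high in every library. The astrocyte genes GFAP, S100B and AQP4 reached at most 1.47 RPKM, AQP4 being at 0 throughout, and SOX2 was near 0 in U87MG but at 47.9 and 49.3 RPKM in U251. Endothelial markers and PTPRC stayed under 1 RPKM, while CD68 ran from 8.52 to 111 RPKM.

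Aminoacyl-tRNA synthetases join each amino acid to its tRNA with the energy of ATP, and so set which amino acid a codon receives. Cytosolic and mitochondrial translation mostly use separate enzymes from separate nuclear genes, although GARS serves both compartments. In vertebrates several cytosolic synthetases sit together with scaffold proteins in the multisynthetase complex, while others act as free enzymes. When amino acids run short or the endoplasmic reticulum is stressed, kinases phosphorylate the initiation factor eIF2 alpha. The transcription factor ATF4 is then made in larger amounts and activates genes of amino acid synthesis, amino acid transport and tRNA charging. ATF4 and C/EBP proteins bind as pairs to a composite element whose known core reads TGATGNAA.

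The RefSeq promoter table (GRCh38.p14) holds 250 bases before and 50 bases after each start site. All 10 members matched it by gene identifier, with 15 windows, and 7 members had TGATGNAA on either strand in 1 window each. Across all 35116 promoter windows of the same length 3.62% held it. The stricter form TGATGCAA was present in 6 members, against 0.866% of all windows. In 5 members the match began within 20 bases of the start site, against 0.476% of all windows. Each member with a match had it in 1 window, so by window these counts are 7, 6 and 5 of 15. Distances hold for the RefSeq start site only. Of all start sites, 29% had their first bases at the start of an annotated transcript (GENCODE 29). The 30 bases around each match follow, with the match in capitals and each read in the direction of its gene. The search fixed every base of the match except the N, so likeness within the capitals is set by the search. TTGCATCA is TGATGCAA read on the other strand, and counted so the open base N is C in 6 of the 7.
AARS: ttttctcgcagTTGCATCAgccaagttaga
GARS: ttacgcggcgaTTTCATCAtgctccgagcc
MARS: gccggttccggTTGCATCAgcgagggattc
NARS: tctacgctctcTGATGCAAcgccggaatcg
TARS: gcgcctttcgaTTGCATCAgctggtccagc
IARS: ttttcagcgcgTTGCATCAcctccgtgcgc
CARS: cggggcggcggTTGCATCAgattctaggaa

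Counted from the start base as 0, the first base of the match was at -187 in AARS (chr16:70289675-70289704, reverse strand), -33 in GARS (chr7:30594834-30594863, forward) and -4 in MARS (chr12:57488053-57488082, forward). It was at 14 in NARS (chr18:57621804-57621833, reverse), 2 in TARS (chr5:33440956-33440985, forward), -13 in IARS (chr9:92293692-92293721, reverse) and -2 in CARS (chr11:3057407-3057436, reverse). AARS thus stands apart from the other 6 by its distance. No window of SARS, WARS or EPRS held the letters. Of the 10 other cytosolic synthetase genes, HARS, FARSA, FARSB, RARS, KARS and QARS had a window and none of these 6 windows held the letters. VARS, YARS, LARS and DARS had no entry. A match is only a run of letters, and the libraries do not measure binding.

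In the annotation (GENCODE 29, GRCh38) the 10 genes lie on 9 chromosomes, with SARS (chr1:109213918-109238169, forward strand) and EPRS (chr1:219968601-220046658, reverse) on the same one. Most member transcripts are distinct in sequence. The share of 31-base words of the longest transcript that also occur in another annotated gene was 6.38% for CARS, 1.45% for TARS, 1.01% for MARS and 0.0384% for GARS, and 0 for the other 6. Several members overlap exons of a gene on the opposite strand. MARS (chr12:57475445-57517569, forward) shares 355 exonic bases, 5.05% of its own, with DDIT3, and 519 with ARHGAP9. Such shares are of all annotated exonic bases, 7028 for MARS and 4065 for KARS. The model lengths recovered from the RPKM values were shorter, 2915 and 2193 bases, so the shared bases may lie outside those counted. The sources used here do not give whether the counting used strand, so reads in shared bases cannot be assigned between such partners.

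All 10 genes were well expressed in all libraries. In the U87MG control they ran from 41.0 RPKM (CARS) to 233 RPKM (TARS), with a median of 86.0 RPKM, and in the U251 control from 25.5 RPKM (CARS) to 192 RPKM (TARS), with a median of 60.0 RPKM. Medians in the knockdown libraries were 110 RPKM in U87MG and 74.0 RPKM in U251. The lowest member of any library, CARS in the U251 control, still lay above 78.2% of the mRNA genes that passed the filter. TARS and GARS held the top 2 places in every library, with TARS first in 3 of them and GARS first in the U87MG knockdown. CARS or MARS was last in 3 libraries and WARS in the U251 knockdown. With 1 library per line and arm there is no replicate spread to set against this order.

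**Figure D1:**
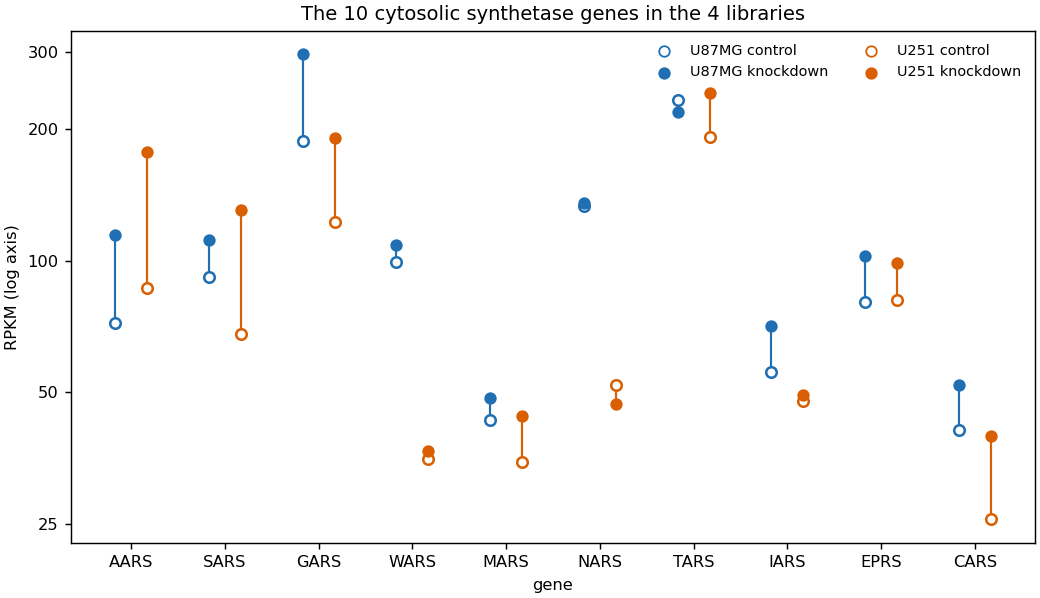
RPKM on a log axis for each of the 10 genes, with the control (open) joined to the knockdown (filled) of the same line, U87MG in blue and U251 in orange, 1 library per point. AARS, SARS, GARS and CARS are higher in the knockdown of both lines, the U87MG pair of TARS and the U251 pair of NARS run downward, and WARS and NARS sit far higher in U87MG than in U251.

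Set against their controls, 8 of the 10 genes were higher in the knockdown of both lines, as were 29.3% of all genes tested. Each line had 9 of 10 higher, against 43.2% of genes in U87MG and 48.4% in U251. The ratios used here are log2 of (RPKM + 1) in the knockdown over the control. Their median over the 10 genes was 0.31 in U87MG and 0.34 in U251, against -0.05 and 0.00 over all genes tested. No member was lower in both, against 36.5% of all genes. At least 25% higher in both lines were AARS, GARS and CARS, or 3 of 10 against 6.5% of all genes. Taken by line this was 5 of 10 for U87MG (17.1% of all genes) and 6 of 10 for U251 (15.8%). At least 1.5-fold in both were AARS and GARS, or 2 of 10 against 1.74%, with 2 of 10 for U87MG (7.68%) and 4 of 10 for U251 (5.01%). No member was lower by 20% or more, against 25.6% of all genes for U87MG and 19.6% for U251, nor by 1.5-fold (11.5% and 7.73%). These counts restate how the genes were chosen and carry no test.

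AARS, the alanyl-tRNA synthetase, had the highest mean ratio. It was at 71.8 (control) and 114 RPKM (knockdown) for U87MG, and 86.5 and 177 RPKM for U251, so both knockdown libraries were above both controls. In whole reads recovered from the RPKM steps and scaled to depth, knockdown over control was 1.59 for U87MG (95% interval 1.54 to 1.64) and 2.04 for U251 (1.99 to 2.10). These intervals are exact Clopper-Pearson intervals that cover counting error only. Whether such an interval includes or leaves out 1 is therefore no test of the knockdown, here or for the genes below. The mean ratio was 0.84 ± 0.17 (limma SE, 2 libraries per arm).

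GARS, the glycyl-tRNA synthetase of cytosol and mitochondria, was at 188 (control) and 296 RPKM (knockdown) for U87MG, and 123 and 191 RPKM for U251. Its ratio was nearly the same in the lines, 0.65 and 0.63, with a mean of 0.64 ± 0.15. The U251 knockdown was only just above the U87MG control. GARS is also the member with the most reads in a library, 21173 in the U87MG knockdown.

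SARS, the seryl-tRNA synthetase, whose product also serves as the first step in charging selenocysteine tRNA, went from 91.5 to 111 RPKM (U87MG) and 68.0 to 130.5 RPKM (U251). Both knockdown libraries were above both controls. The line ratios of 0.28 and 0.93 were the furthest apart of the 10 genes, and the mean was 0.61 ± 0.19. CARS, the cysteinyl-tRNA synthetase, was at 41.0 (control) and 51.8 RPKM (knockdown) for U87MG, and 25.5 and 39.6 RPKM for U251. Its mean ratio was 0.47 ± 0.17, but the U251 knockdown did not reach the U87MG control.

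EPRS, IARS and MARS encode synthetases of the multisynthetase complex. EPRS, a fused enzyme that charges the tRNAs of glutamate and proline, was at 80.5 (control) and 103 RPKM (knockdown) for U87MG, and 81.3 and 98.8 RPKM for U251. The controls were nearly level, and so were the knockdown libraries, with ratios of 0.35 and 0.28. IARS, the isoleucyl-tRNA synthetase, was at 55.6 and 70.9 RPKM in U87MG but at 47.6 and 49.3 RPKM in U251. Its U251 read ratio of 1.04 had a counting interval of 0.999 to 1.07, which includes no change, and the U251 log2 ratio of 0.05 became -0.0068 after quantile normalization. MARS, the methionyl-tRNA synthetase, was at 43.2 (control) and 48.4 RPKM (knockdown) for U87MG, and 34.5 and 44.0 RPKM for U251, with ratios of 0.16 and 0.34. DDIT3, whose exons overlap those of MARS, was at 281 (control) and 564 RPKM (knockdown) for U87MG, and 23.9 and 61.0 RPKM for U251, and its part in the MARS values was not tested.

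WARS, the tryptophanyl-tRNA synthetase, which interferon gamma is known to induce, barely differed between the arms. It was at 99.1 (control) and 109 RPKM (knockdown) for U87MG, and 35.1 and 36.7 RPKM for U251. The read ratio was 1.10 in U87MG (1.06 to 1.13) and 1.05 in U251 (0.991 to 1.10, which includes no change). The difference between the lines was far larger than that between the arms.

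NARS and TARS were the members that were not higher in both lines. NARS, the asparaginyl-tRNA synthetase, was at 133 RPKM in the U87MG control and 135 in the knockdown, a read ratio of 1.02 whose counting interval of 0.988 to 1.04 includes no change. In U251 it was at 52.0 and 47.0 RPKM, a read ratio of 0.904 (0.863 to 0.946). The small U87MG log2 ratio of 0.02 turned to -0.023 after quantile normalization, while the U251 ratio stayed negative under each scaling tried, from -0.21 to -0.11. TARS, the threonyl-tRNA synthetase, was at 233 and 219 RPKM in U87MG, a read ratio of 0.942 (0.922 to 0.962), and at 192 and 242 RPKM in U251, a read ratio of 1.26 (1.24 to 1.29). Its U87MG log2 ratio of -0.09 depended on scaling, with 0.0046 after trimmed-mean rescaling and -0.18 after quantile normalization.

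**Figure D2:**
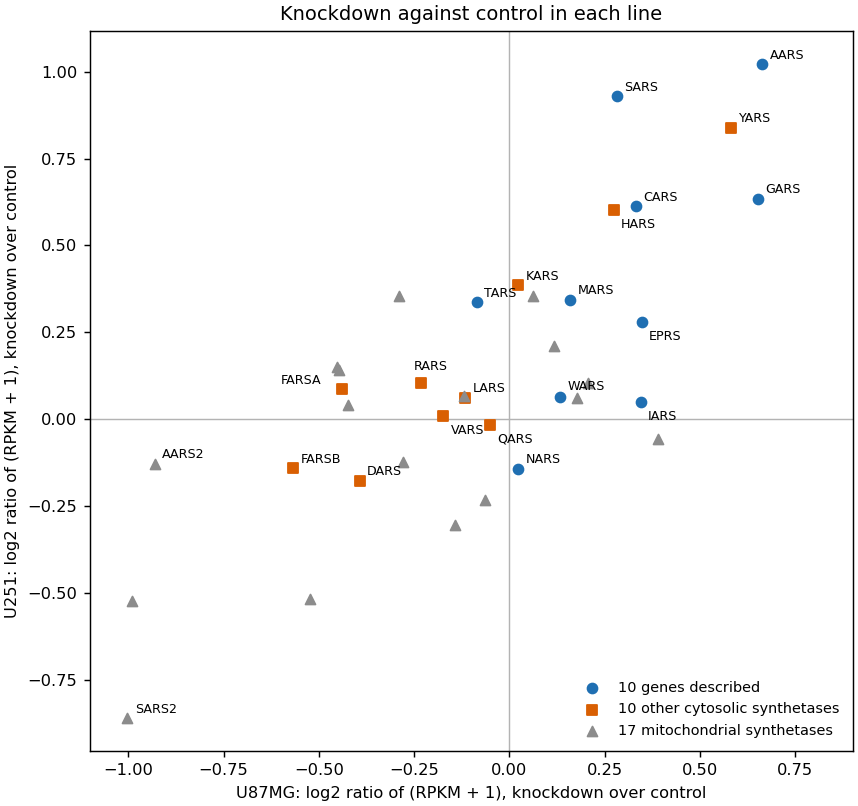
Log2 ratio of (RPKM + 1), knockdown over control, in U87MG (x axis) against U251 (y axis), 1 point per gene and no replicate within a line: the 10 genes described (blue circles), the other 10 cytosolic synthetases (orange squares) and 17 mitochondrial synthetases (grey triangles). AARS and GARS are furthest right at 0.66 and 0.65, NARS lies just below 0 for U251 and TARS just left of 0 for U87MG.

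The other 10 cytosolic synthetase genes were fitted by limma with the cell line as a block. None passed an adjusted p of 0.05 (Benjamini-Hochberg over all genes tested, of which 1.16% were called higher and 2.61% lower), and 2 were higher at an unadjusted p under 0.05. HARS, YARS and KARS were higher in each line, FARSB, DARS and QARS lower in each, and the medians were -0.14 (U87MG) and 0.07 (U251). YARS, the tyrosyl-tRNA synthetase, was at 97.1 (control) and 146 RPKM (knockdown) for U87MG, and 66.7 and 120 RPKM for U251 (0.71 ± 0.16, limma adjusted p = 0.0561). That estimate was above those of 9 of the 10 members. HARS, the histidyl-tRNA synthetase, had ratios of 0.27 and 0.60 (limma adjusted p = 0.202), and its exons overlap those of HARS2 on the opposite strand. KARS, the lysyl-tRNA synthetase, had ratios of 0.02 and 0.39, and the first turned to -0.019 after quantile normalization. KARS shares 176 exonic bases, 4.33% of its own, with TERF2IP on the opposite strand. TERF2IP was at 90.0 (control) and 113 RPKM (knockdown) for U87MG, and 85.6 and 162 RPKM for U251. The part of TERF2IP in the KARS values was not tested. QARS turned to 0.038 and 0.015 after trimmed-mean rescaling.

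FARSA and FARSB, the subunits of phenylalanyl-tRNA synthetase, stood at -0.44 and -0.57 (U87MG) and 0.09 and -0.14 (U251). DARS, for aspartate, went from 125 to 95.2 RPKM (U87MG) and 72.4 to 63.9 RPKM (U251) (-0.29 ± 0.16, limma adjusted p = 0.352). QARS, VARS, LARS and RARS had limma estimates between -0.08 and -0.03, with an SE of 0.16 or 0.17. TARSL2, a TARS paralog, was low, at 7.51 (control) and 6.84 RPKM (knockdown) for U87MG, and 2.66 and 2.36 RPKM for U251, with ratios of -0.12 and -0.13.

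Split by place in the cell, the 8 synthetase genes of the multisynthetase complex (EPRS, IARS, MARS, LARS, QARS, KARS, RARS and DARS) had a median of -0.01 in U87MG and 0.08 in U251. The 12 outside it had medians of 0.20 and 0.47. This split was made after the values were seen and was not tested. The scaffold genes had no call by limma and none at an unadjusted p under 0.05. AIMP1, AIMP2 and EEF1E1 differed in pattern, and for AIMP1 (U87MG) and AIMP2 (U251) the small negative ratio turned positive, to 0.046 and 0.0017, after trimmed-mean rescaling. AIMP1 was at 42.5 (control) and 41.2 RPKM (knockdown) for U87MG, and 42.4 and 57.7 RPKM for U251, AIMP2 at 37.6, 29.1, 53.1 and 52.0 RPKM in that order. EEF1E1 was at 11.7 (control) and 18.9 RPKM (knockdown) for U87MG, and 18.0 and 19.7 RPKM for U251.

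Of 17 mitochondrial synthetase genes tested, 7 were lower in both lines and 4 higher in both, shares close to the 36.5% and 29.3% of all genes, and the medians were -0.28 (U87MG) and 0.04 (U251). SARS2, the mitochondrial seryl-tRNA synthetase, fell from 4.40 to 1.70 RPKM (U87MG) and 4.84 to 2.22 RPKM (U251) (-0.93 ± 0.17, limma adjusted p = 0.0326). It was the only gene of this list called, and the call held in 2 of 6 alternative settings. The call was lost after trimmed-mean rescaling (limma adjusted p = 0.0644) and without the intensity trend (0.0524). With no filter on low values (0.416) and without the cell-line block (0.9998) it was lost as well. SARS, the cytosolic counterpart of SARS2, was higher in both knockdown libraries. VARS2 had a ratio of -0.52 in each line, and AARS2 had -0.93 and -0.13.

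In the list of tRNA maturation and export, 8 of 16 genes were lower in both lines and 2 higher in both (36.5% and 29.3% of all genes), and the medians were -0.33 (U87MG) and 0.00 (U251). XPOT, the exportin that carries tRNA out of the nucleus, fell from 105 to 62.5 RPKM (U87MG) and 50.7 to 28.7 RPKM (U251) (-0.77 ± 0.16, limma adjusted p = 0.0449). No other gene of the list was called, and the call of XPOT held in 3 of 7 alternative settings. It was lost after trimmed-mean rescaling (limma adjusted p = 0.0749), without the intensity trend (0.075), with no filter (0.416) and without the cell-line block (0.9998). POLR3B and POLR3G, subunits of RNA polymerase III, stood at -0.52 and -0.56 (U87MG) and -0.17 and -0.09 (U251), and BRF1, a factor of the same polymerase, -0.43 and -0.14. Elongation factor genes had medians of 0.10 and 0.16 with none of 6 called by limma and none at an unadjusted p under 0.05. EEF2 had ratios of 0.10 and 0.41, EEF1A1 0.27 and 0.20 and EEF1G 0.11 and 0.12. EEF1A2 was near 0 in both U87MG libraries, with 2 reads (0.038 RPKM) in the control and no read in the knockdown. In U251 it was at 62.3 (control) and 45.9 RPKM (knockdown).

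The eIF2 alpha kinase and ATF4 list had 13 of 16 genes higher in both lines (29.3% of all genes), and the medians were 0.40 (U87MG) and 0.39 (U251). By limma 4 of them rose and none fell, against 1.16% of all genes called higher and 2.61% lower. These were ATF3 (1.29 ± 0.19, adjusted p = 0.0211), DDIT3 (1.16 ± 0.16, adjusted p = 0.0189), TRIB3 (1.08 ± 0.16, adjusted p = 0.0215) and PPP1R15A, a regulatory subunit of the phosphatase that acts on eIF2 alpha (1.04 ± 0.18, adjusted p = 0.0286). After trimmed-mean rescaling only DDIT3 of these 4 passed (limma adjusted p = 0.0400), with the others at 0.0502 to 0.0514, and with no filter on low values none did (0.416 each). PPP1R15A was also lost without the intensity trend (limma adjusted p = 0.0559), and none of the 4 passed without the cell-line block (0.9998 each). ATF3, DDIT3 and TRIB3 were already known to be higher in these libraries when the list was drawn up, so it is not independent evidence of a direction. ATF4 itself was at 127 (control) and 186 RPKM (knockdown) for U87MG, and 88.3 and 141 RPKM for U251, but did not pass the test (0.61 ± 0.15, limma adjusted p = 0.0722). The kinase gene EIF2AK2, the 1 gene of the list lower in both lines, did not pass either (-0.64 ± 0.16, limma adjusted p = 0.0796). It was at 15.6 (control) and 10.3 RPKM (knockdown) for U87MG, and 43.4 and 26.0 RPKM for U251.

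Amino acid synthesis genes had medians of 0.06 in U87MG and 0.42 in U251, with 8 of 12 higher in both lines (29.3% of all genes). GOT1, the cytosolic aspartate aminotransferase, rose from 24.5 to 43.4 RPKM and from 14.8 to 25.5 RPKM (0.77 ± 0.16, limma adjusted p = 0.0474). This call, the only one in the list, was lost after trimmed-mean rescaling (limma adjusted p = 0.0634), without the intensity trend (0.0748) and with no filter on low values (0.416). Without the cell-line block it was lost too (0.9998). ASNS, the asparagine synthetase, had ratios of 0.53 and 0.61 (limma adjusted p = 0.102), MTHFD2 0.34 and 0.65, and CTH, of cysteine synthesis, 1.21 and 0.35. ASNS makes the amino acid that NARS charges, and NARS had ratios of 0.02 and -0.14 in the same libraries. Of 10 amino acid transporter genes 9 passed the filter, without SLC43A1, and none was called by limma. The subunits of the large neutral amino acid transporter had ratios of opposite sign, 0.29 and 0.75 for SLC3A2 and -0.59 and -0.95 for SLC7A5 (limma adjusted p = 0.15 and 0.0557). SLC38A2 had ratios of -0.03 and -0.63, and SLC6A9 0.37 and 0.35. At an unadjusted p under 0.05, 1 transporter was higher and 1 lower.

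**Figure D3:**
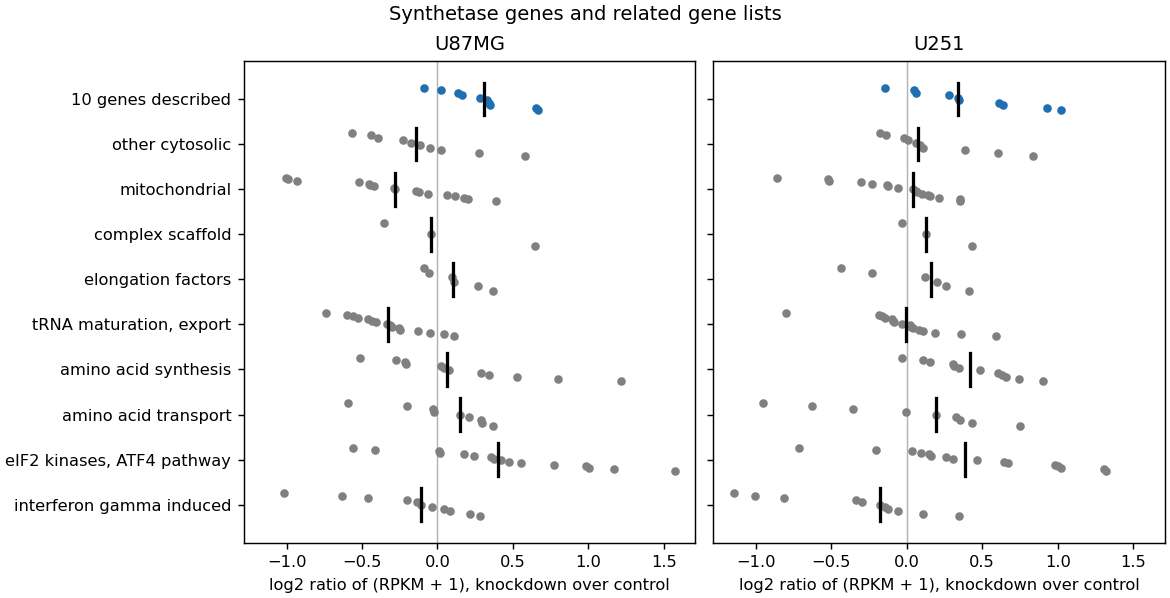
Log2 ratio of (RPKM + 1), knockdown over control, for each gene (points) of the 10 genes described (blue) and of 9 related lists (grey), with the median of each list as a black bar, in U87MG (left) and U251 (right). The blue medians are 0.31 and 0.34, those of the ATF4 list 0.40 and 0.39, and those of mitochondrial synthetases -0.28 and 0.04.

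The comparison of the lines was not used to choose the genes, so it was tested, with the arm as a covariate. By limma 4 of the 10 were higher in U87MG than in U251, against 21.6% of all genes, and none was lower, against 27% of all genes. In either direction this was 4 of 10, against 48.6% of all genes. WARS was higher in U87MG by 1.51 ± 0.16 (log2, 2 libraries per line, adjusted p = 0.000215), and NARS by 1.42 ± 0.16 (adjusted p = 0.00029). The levels do not overlap, since the lowest U87MG value of WARS is 99.1 RPKM and its highest U251 value 36.7 RPKM, and for NARS these are 133 and 52.0 RPKM. GARS was higher by 0.62 ± 0.15 (limma adjusted p = 0.00988) and CARS by 0.52 ± 0.17 (limma adjusted p = 0.0349). For GARS the U251 knockdown lay above the U87MG control by a narrow margin, 191 against 188 RPKM.

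The other 6 did not pass the test between the lines. AARS had the only negative estimate, -0.45 ± 0.17 (limma adjusted p = 0.057), with 71.8 and 114 RPKM in U87MG and 86.5 and 177 RPKM in U251. IARS was at 0.37 ± 0.17, MARS at 0.23 ± 0.16, SARS at 0.10 ± 0.19, TARS at 0.07 ± 0.16 and EPRS at 0.02 ± 0.16, of which the last 2 turned negative (-0.18 and -0.044) after quantile normalization. For SARS and TARS the line with the higher value changed between the arms, U87MG in the controls and U251 in the knockdown libraries, and for EPRS it changed the other way by a small margin. Both calls for WARS and NARS held under each of the 6 alternative settings run, while those for GARS and CARS were lost when genes of low value were kept (limma adjusted p = 0.0593 and 0.0858).

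WARS was higher in U87MG, and of 11 genes listed as induced by interferon gamma and tested, 8 were lower there by limma and none was higher, against 27% and 21.6% of all genes. GBP1, a guanylate-binding protein, had 6.41 and 5.74 RPKM for U87MG against 62.0 and 66.9 RPKM for U251. In the knockdown comparison the same list had medians of -0.11 in U87MG and -0.18 in U251. PSMB9, an immunoproteasome subunit, fell (-1.01 ± 0.16, limma adjusted p = 0.024), while IRF1 had ratios of -0.63 and -0.30, CXCL10 -0.46 and -1.15 and ICAM1 0.28 and -0.81. CXCL10 had few reads, 12 (control) and 0 (knockdown) for U87MG, and 43 and 3 for U251. CIITA did not pass the filter. The call of PSMB9 was lost after trimmed-mean rescaling (limma adjusted p = 0.0527), with no filter on low values (0.416) and without the cell-line block (0.9998).

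**Figure D4:**
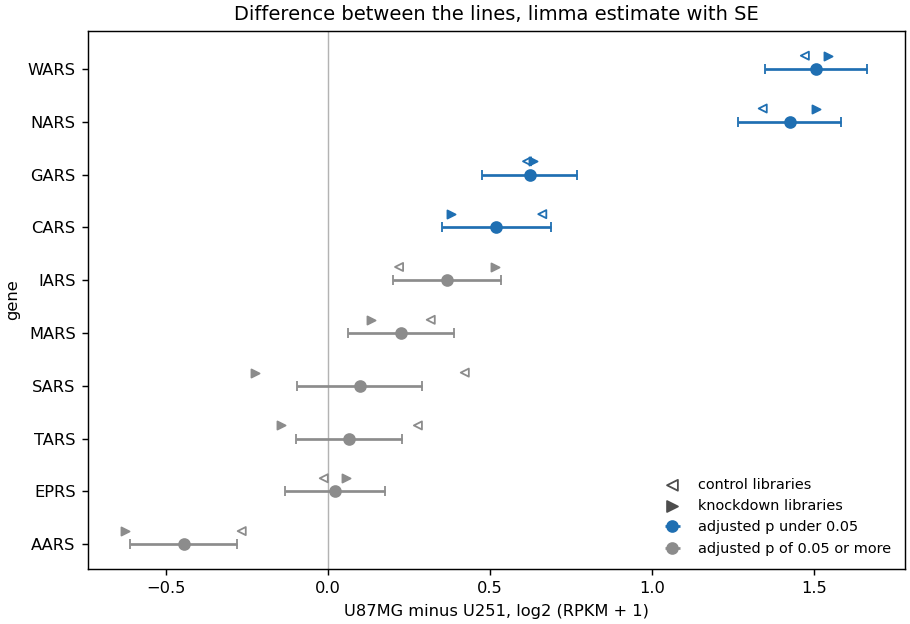
Difference between U87MG and U251 on the log2 (RPKM + 1) scale for the 10 genes, as the limma estimate with its SE (circles and bars, 2 libraries per line, blue where the adjusted p is under 0.05), and the difference within the control libraries (open triangles) and the knockdown libraries (filled triangles). WARS and NARS stand at 1.51 and 1.42, well right of the rest, and the triangles of SARS, TARS and EPRS fall on opposite sides of 0.

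The median profile of the 10 genes over the 4 libraries (log2 values centred on each gene's mean) was 0.02 and 0.27 for U87MG control and knockdown, and -0.40 and 0.05 for U251. Among 6045 mRNA genes of 5 RPKM or more in every library, those nearest to it by Euclidean distance were RPL12 (0.0421), AKIRIN1 (0.0423), ATP5I (0.0536), POLR2D (0.0576), CCDC50 (0.0616), APRT (0.0642), SEC62 (0.0647) and ZCCHC9 (0.0771). RPL12, a ribosomal protein gene, was at 121, 141, 87.5 and 123 RPKM in the same order of libraries. The members themselves were further from their median, from 0.143 for MARS to 0.915 for AARS, 1.19 for NARS and 1.22 for WARS. The median is therefore a poor picture of AARS, NARS and WARS.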

How the data were processed

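The authors deposited RPKM values per gene for 4 poly(A) libraries, and all 4 columns were used. Bowtie 0.12.2 and hg19 are named per the submitters' processing notes. Not given in the sources used here are the counting program, the annotation and the strand setting. Whole reads were recovered from the RPKM steps for 27928 of 27973 genes above 0 (99.8%, within 0.01 reads). In a gene of 1 kilobase, 1 read was worth 0.0358 to 0.0398 RPKM.

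Log2 values of RPKM + 1 were fitted in R 4.3.3 by limma 3.58.1, with terms for cell line (the block that pairs each knockdown library with its control) and arm. The eBayes step had an intensity trend, tests were two-sided, and p-values were adjusted by Benjamini-Hochberg across the 16098 genes, with 1 residual degree of freedom each. Simulated data of the knockdown design (15596 genes) were tested first. Of genes changed 2-fold, 81 of 100 were recovered, and of those changed 4-fold, 98 of 99. The simulated noise was counting error plus a log2 SD of 0.15 for every gene, with the same change in both lines. The rates hold for that setting and need not carry over to these libraries. Among 238 calls 59 were of unchanged genes, more than an adjusted p of 0.05 allows for.

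The members and the 10 other lists were chosen with earlier results of these data known. Named were the 10 members, SRSF1, the other cytosolic synthetase and scaffold genes, in each further list the called genes and up to 4 of largest absolute mean ratio, and the 8 nearest profiles. Some genes that this rule names are not reported here. ATF4, EIF2AK2 and GBP1 were added after their values were seen, as was the split by the multisynthetase complex. Positions are from GENCODE 29 and promoter windows from RefSeq, both GRCh38. No hg19 position was converted. Other software was Python 3.11.15, numpy 2.4.6, pandas 2.3.3, scipy 1.17.1, and for plots matplotlib 3.10.9.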

Additional observations from a re-analysis of the deposited data

Results flagged for a closer look

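Of 52 genes named from the synthetase and related lists, 8 had a knockdown library above its control in one line and below it in the other, as did 31.8% of all genes tested. With 1 library per line and arm these differences between the lines were not tested. Many of the 52 were named for a call or a large mean ratio, which favours the same sign in both lines. Their share is therefore not comparable with that of all genes. The U251 ratio minus the U87MG ratio, on the log2 scale, was 0.53 for FARSA, 0.48 for AIMP1, 0.42 for TARS, 0.34 for RARS, 0.18 for VARS, 0.18 for LARS, -0.17 for NARS and -1.09 for ICAM1. Several rest on a ratio close to 0 in one line, such as 0.01 for VARS in U251, 0.02 for NARS in U87MG and -0.04 for AIMP1 in U87MG. ICAM1 was at 1.82 (control) and 2.42 RPKM (knockdown) for U87MG, and 4.16 and 1.94 RPKM for U251.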

How the results depend on the processing

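The number of the 10 genes higher in both lines was 8 in the values given, 9 after trimmed-mean rescaling, 7 after quantile normalization and 8 under the other settings. Their median ratio ran from 0.31 to 0.40 in U87MG and from 0.31 to 0.37 in U251. The count of genes called by limma for the knockdown, 186 higher and 420 lower, depended strongly on the settings. It was 48 and 52 after trimmed-mean rescaling, 88 and 172 without the intensity trend, and 315 higher and 513 lower after quantile normalization. With a minimum of 5 RPKM 301 were called higher. With no filter on low values it was 0 and 0 (1234 and 1890 at an unadjusted p under 0.05). With no replicate block, that is without the pairing by cell line, it was 0 and 0 (79 and 183 unadjusted). In the other gene lists 5 genes were called higher and 3 lower. These became 1 (DDIT3) and 0 after trimmed-mean rescaling and 3 and 1 without the intensity trend. They became 0 and 0 with no filter, 0 and 0 with no replicate block, and 5 lower with a minimum of 5 RPKM. Between the lines, 3482 genes were called higher and 4347 lower in U87MG, and 1856 and 2430 with no filter. Of 60 values of the members between the lines under alternatives, 54 kept their direction and side of the threshold. AARS passed it with a minimum of 5 RPKM (adjusted p = 0.0469 by limma) and after quantile normalization (0.0162). The estimates of TARS and EPRS, neither called, turned to -0.18 and -0.044 after quantile normalization. The cause of these shifts was not tested. The members had 1807 to 21173 reads per library, and the spread between cultures was not measured.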
